A study of Homo sapiens with 6 samples.

Results

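The 9 genes described here make, receive or restrain the extracellular proteolysis that tumour cells use to invade. They are the collagenase gene MMP1, the membrane metalloprotease gene MMP14, the tissue inhibitors of metalloproteases TIMP1, TIMP2 and TIMP3, the urokinase gene PLAU, its receptor gene PLAUR, and the sheddase genes ADAM10 and ADAM17. They were taken by name from the 21619 genes in the files, and all 9 passed the filter on low counts that left 13548 genes to test.

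The cells were MDA-MB-231, a human breast cancer line without hormone receptors, carrying ribosomal protein L10a fused to EGFP. Anti-GFP beads recovered tagged polysomes (translating ribosome affinity purification, TRAP), and the polyadenylated RNA bound to them was sequenced. All cultures, the untreated ones included, spent 24 h in 0.2% serum before a 6 h treatment period. Untreated cells received 0 ng/mL of both factors. At the lower dose CXCL12 was at 30 ng/mL and IGF1 at 10 ng/mL, and at the higher dose CXCL12 was at 300 ng/mL and IGF1 at 100 ng/mL, with 2 biological replicates (a and b) in each of these 3 groups. CXCL12 is a chemokine and IGF1 an insulin-like growth factor; they were given together, so their separate effects cannot be told apart. This is 1 cell line, and whether the tagged line was a clone or a pool is not given in the sources used here. Total RNA was not analysed here, so mRNA abundance, ribosome association and recovery on the beads cannot be told apart, nor can a change in every cell and a change in some of the cells.

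In general, matrix metalloproteases cut collagens and other matrix proteins, and TIMPs bind their active sites. MMP14 sits on the cell surface and, with TIMP2 as a bridge, activates the gelatinase MMP2. Urokinase bound to its receptor turns plasminogen into plasmin, a broad protease. ADAM10 and ADAM17 release growth factors, adhesion molecules and receptors from the surface, and TIMP3 inhibits ADAM17.

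A library held 26255079 to 30280322 reads on genes, and the members had 1115 to 33813 reads each, for which counting alone gives a standard deviation of 0.544% to 2.99%. Values are given as CPM, the reads of a gene scaled to a library total after TMM normalisation. This total was over the tested genes, or over all genes for the marker genes that follow. The mesenchymal markers VIM (2680 to 3748 CPM) and AXL (1000 to 1204 CPM) were abundant in every library, while the hormone receptor genes ESR1 and PGR had at most 4 and 5 reads and the epithelial cadherin gene CDH1 at most 13. EPCAM, another epithelial marker, was present at 11.3 to 13.6 CPM. Defining genes of other cell types were low: PTPRC of leukocytes had at most 14 reads, ALB of hepatocytes at most 2, and COL1A1 of fibroblasts 5.95 to 7.20 CPM.

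At the higher dose, 8 of the 9 genes were lower than in untreated cells and none was higher, against 28.2% of all tested genes called lower and 28.1% called higher (edgeR's quasi-likelihood test, adjusted p under 0.05). PLAU, TIMP3 and MMP14 fell furthest, by 43.8%, 31.8% and 30.8%, and PLAUR, the urokinase receptor gene, did not pass the test. With an offset that takes out, library by library, any smooth trend of counts with transcript length and GC content, PLAU (log2 fold change −0.83) stayed in front, but MMP1 (−0.48) came before TIMP3 (−0.46) and MMP14 (−0.43). The members' median log2 fold change was −0.41, beside −0.00 over all genes tested. At the lower dose, 6 of the 9 were lower than in untreated cells and none was higher, against 15.9% and 16.7% of all genes, with a median of −0.11. Between the doses, 8 were lower at the higher dose and none was higher, against 17.6% and 16.4% of all genes, with a median of −0.23. The comparisons share libraries and are therefore not independent of each other. The shares over all genes are not matched to the members in depth. They include genes with far fewer reads, such as MMP8 with at most 23 in a library, while every member had at least 1115. The members were also chosen with earlier results of these data known.

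**Figure D1:**
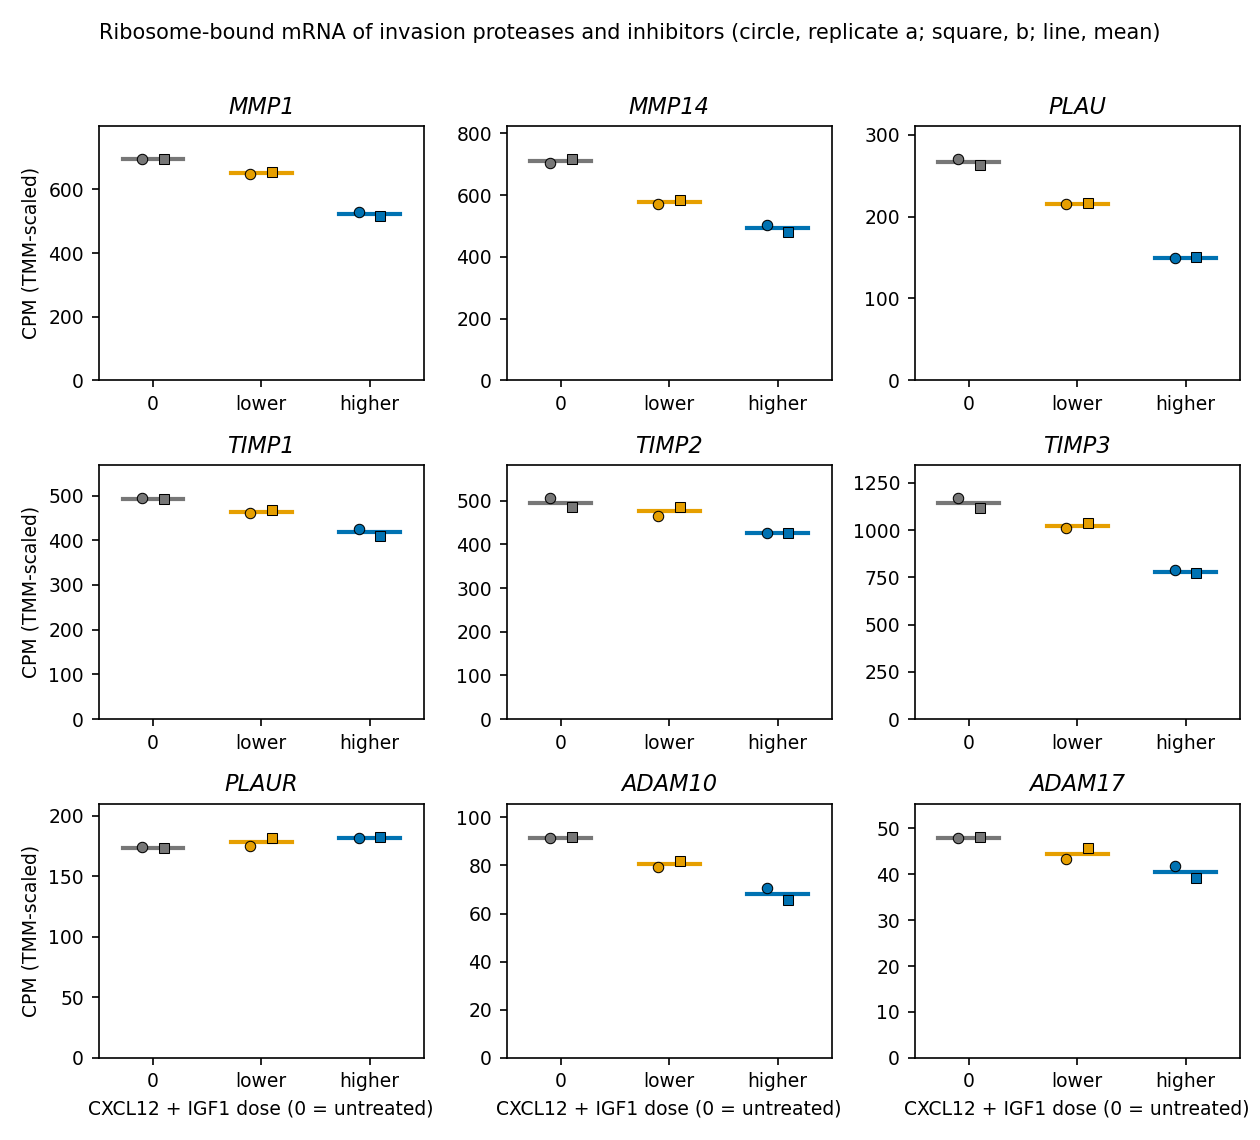
CPM of each of the 9 genes (vertical axes, each starting at 0) in the untreated, lower dose and higher dose groups (horizontal axes); points are single libraries, 2 in each group, and lines mark group means. PLAU falls to 149 and 150.3 CPM at the higher dose, against 270.1 and 263 CPM in untreated cells, while PLAUR stays between 173 and 182.5 CPM in all 6 libraries.

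The urokinase gene PLAU moved most. PLAU had 270.1 and 263 CPM in the untreated libraries, 215 and 217 CPM at the lower dose and 149 and 150.3 CPM at the higher dose. The 3 groups did not overlap, and each step up in dose was a step down. At the higher dose the log2 fold change against untreated cells was −0.83 ± 0.03 (SE, adjusted p = 3.10e-30), a value undercut by 1.70% of the genes tested. At the lower dose it was −0.30 ± 0.03 (adjusted p = 1.35e-12), and at the higher dose against the lower dose −0.53 ± 0.03 (adjusted p = 2.18e-20). The gene C10orf55, which overlaps PLAU in the annotation, had 41 to 64 reads per library, few beside those of PLAU.

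Its receptor behaved differently. PLAUR, which holds urokinase at the cell surface through a lipid anchor, had 174.0 and 173 CPM in the untreated libraries, 175 and 182 CPM at the lower dose and 181 and 182.5 CPM at the higher dose. The untreated libraries were the lowest, but the dose groups overlapped each other. The log2 fold change was 0.07 ± 0.03 at the higher dose (adjusted p = 0.0569) and 0.04 ± 0.03 at the lower dose (adjusted p = 0.388), both against untreated cells. Neither passed the threshold, which does not show that PLAUR was the same in all groups.

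The reads of PLAU per read of PLAUR put this pair on a scale that does not depend on library size. The ratio was 1.55 and 1.52 in untreated cells, 1.23 and 1.19 at the lower dose and 0.823 and 0.824 at the higher dose. Untreated cells thus held more PLAU than PLAUR reads and higher dose cells fewer, a fall in the ratio by 46.3%. An exact permutation test of its trend over dose gave p = 0.0222, the smallest that 90 arrangements of 6 libraries allow, and 0.0333 after adjustment over 6 ratios.

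PLAU and PLAUR also differ in the letters around their start sites. RefSeq's table of promoters (GRCh38.p14, 250 bases before to 50 after each start) held 7 of the 9 members, lacking MMP1 and TIMP2, and the pair that diverged in dose response is shown here. For PLAU, the downstream of 2 listed starts was taken (chr10:73910882-73911181, plus strand), and PLAUR lies at chr19:43670120-43670419 on the minus strand. Capitals mark the AP-1 motif TGANTCA and the GC box GGGCGG, each searched on both strands.
PLAU: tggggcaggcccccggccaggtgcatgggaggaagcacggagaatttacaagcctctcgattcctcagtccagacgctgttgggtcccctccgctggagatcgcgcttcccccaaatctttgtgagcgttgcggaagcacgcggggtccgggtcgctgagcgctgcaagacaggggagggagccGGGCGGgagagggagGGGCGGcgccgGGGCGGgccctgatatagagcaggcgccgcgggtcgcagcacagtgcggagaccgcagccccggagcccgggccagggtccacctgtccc
PLAUR: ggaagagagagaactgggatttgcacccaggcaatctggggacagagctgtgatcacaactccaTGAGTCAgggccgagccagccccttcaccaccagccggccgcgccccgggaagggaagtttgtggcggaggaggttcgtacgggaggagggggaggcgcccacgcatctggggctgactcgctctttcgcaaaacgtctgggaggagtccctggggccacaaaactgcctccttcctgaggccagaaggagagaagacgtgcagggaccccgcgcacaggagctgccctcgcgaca
PLAUR held the letters TGAGTCA, an AP-1 match, 186 bases upstream of its start. None of the other promoters of members in the table held an AP-1 match in this window, and 7.71% of 35116 promoters of this length did. PLAU held 3 GC boxes, at 66, 51 and 40 bases upstream, a motif found in 45% of promoters, and its upstream start held none. PLAUR held no GC box, but the windows of MMP14, TIMP1, TIMP3, ADAM10 and ADAM17 did, so the motif does not set PLAU apart from them. The FOXO motif GTAAACA, present in 3.42% of promoters, was in none of the members' windows. A match describes the sequence and is not evidence of binding. Whether these letters bear on the dose responses was not tested, and the windows of MMP1 and TIMP2 were not available.

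Of the 12 other tested genes of the plasminogen system, 7 were lower and 1 was higher at the higher dose than in untreated cells. Over all genes tested, 28.2% were lower and 28.1% higher. PLAT, the gene of tissue plasminogen activator, averaged 544 ± 0.55 CPM at the higher dose and 791 ± 37.9 CPM in untreated cells (SD, n = 2 each), a log2 fold change of −0.54 (adjusted p = 1.74e-23). Both plasminogen activator genes were thus lower. LRP1, an endocytic receptor that clears urokinase complexes from the surface, changed by −0.71 on the log2 scale (adjusted p = 2.42e-19), and MRC2, a collagen receptor that associates with the urokinase receptor, by −0.71 (adjusted p = 2.35e-19). SERPINI1, which encodes neuroserpin, an inhibitor of tissue plasminogen activator, changed by −0.56 (adjusted p = 3.85e-05). Plasminogen itself (PLG) had at most 1 read in a library and was not tested.

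The metalloprotease genes MMP1 and MMP14 were both lower. MMP1, the interstitial collagenase, had 694.5 and 694.7 CPM in the untreated libraries, 648 and 655 CPM at the lower dose and 530 and 518 CPM at the higher dose. MMP14 had 705 and 716 CPM in the untreated libraries, 571 and 583 CPM at the lower dose and 505 and 479 CPM at the higher dose. No groups overlapped for either gene. Most of the MMP1 difference lay between the doses, where the log2 fold change was −0.32 ± 0.03 (adjusted p = 3.08e-14), beside −0.09 ± 0.03 at the lower dose against untreated cells (adjusted p = 0.00472). For MMP14 the lower dose gave −0.30 ± 0.03 against untreated cells (adjusted p = 4.70e-13), and the higher dose against the lower dose −0.23 ± 0.03 (adjusted p = 1.22e-09). At the higher dose against untreated cells the values were −0.41 ± 0.03 for MMP1 (adjusted p = 1.60e-19) and −0.53 ± 0.03 for MMP14 (adjusted p = 1.49e-23). The MMP1 call at the lower dose was lost without lower dose replicate a (log2 fold change −0.09, adjusted p = 0.0538), and its log2 fold change was −0.15 with the length and GC offset.

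Other metalloproteases were far less abundant. Of 9 other MMP genes tested, 5 were lower and none was higher at the higher dose than in untreated cells. Their median log2 fold change was −0.27, and 28.2% and 28.1% of all genes were called lower and higher. With DESeq2 2 of the 9 were called. MMP11, a secreted metalloprotease found in tumour stroma, averaged 3.93 ± 0.50 CPM at the higher dose and 5.71 ± 0.15 CPM in untreated cells (SD, n = 2 each; log2 fold change −0.54, adjusted p = 0.000340). MMP15, a membrane metalloprotease like MMP14, averaged 7.73 ± 0.11 CPM at the higher dose and 10.5 ± 0.11 CPM in untreated cells (−0.44, adjusted p = 6.73e-05). MMP16, also membrane-bound, had a log2 fold change of −0.45 (adjusted p = 0.00574), which did not pass without higher dose replicate b (0.0685) or with DESeq2 (0.0919). MMP19 had −0.57 (adjusted p = 0.00358), which did not pass without untreated replicate b (0.330), without higher dose replicate a (0.0594) or with DESeq2 (0.0783). The fifth, MMP24, named after its values were seen, had −0.11 (adjusted p = 0.0302), which turned to 0.01 with the length and GC offset (0.860) and did not pass with DESeq2 (0.161) or without any 1 of the untreated and higher dose libraries (0.0564 to 0.114). MMP2, the gelatinase that MMP14 activates, had at most 9 reads in a library and was not tested. MMP13, another collagenase named after its values were seen, was the 1 MMP gene called higher at the lower dose. With the length and GC offset MMP24 was called higher there too (0.13, adjusted p = 0.0206). MMP13 had 3 and 5 reads in untreated cells, 7 and 18 at the lower dose and 8 and 13 at the higher dose. At the higher dose its log2 fold change against untreated cells was 1.36, just short of the threshold (adjusted p = 0.0504). MMP13 passed there in some of the alternatives, such as the compared groups alone (0.0445) and the replicate block (0.0418).

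The inhibitor genes were lower at the higher dose as well. TIMP3, whose protein stays bound to the extracellular matrix, had 1169 and 1115 CPM in the untreated libraries, 1012 and 1035 CPM at the lower dose and 787 and 771 CPM at the higher dose. The groups did not overlap, and TIMP3 was the member with the most reads in every library. Its log2 fold change against untreated cells was −0.55 ± 0.03 at the higher dose (adjusted p = 1.14e-24) and −0.16 ± 0.03 at the lower dose (adjusted p = 3.61e-06). The higher dose against the lower dose gave −0.39 ± 0.03 for TIMP3 (adjusted p = 1.59e-17), −0.15 ± 0.03 for TIMP1 (adjusted p = 9.82e-06) and −0.16 ± 0.03 for TIMP2 (adjusted p = 7.48e-06).

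TIMP1 and TIMP2, whose proteins are secreted in soluble form, had smaller changes than TIMP3 without the length and GC offset. With it TIMP1 lay below TIMP3 at the lower dose, at −0.18 beside −0.12. TIMP1 had 494 and 492 CPM in the untreated libraries, 460.1 and 468 CPM at the lower dose and 425 and 410.0 CPM at the higher dose. TIMP2 had 506 and 486 CPM in the untreated libraries, 465 and 485 CPM at the lower dose and 426.0 CPM in both higher dose libraries. For TIMP2 the upper lower dose library and the lower untreated library nearly touched. At the higher dose TIMP1 had a log2 fold change of −0.24 ± 0.03 (adjusted p = 6.27e-11) and TIMP2 of −0.22 ± 0.03 (adjusted p = 1.63e-09) against untreated cells. With the offset for length and GC content these became −0.39 for TIMP1 and −0.14 for TIMP2. At 892 nt, TIMP1 has the shortest transcript of the members. At the lower dose TIMP1 had −0.09 ± 0.03 (adjusted p = 0.0100), which became −0.18 with the offset and did not pass without lower dose replicate a (adjusted p = 0.106). TIMP2 did not pass at the lower dose (−0.06 ± 0.03, adjusted p = 0.0921), although it did without untreated replicate b (0.0189), without lower dose replicate b (0.0427) and with upper quartile scaling (0.0448).

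RECK, a membrane-anchored inhibitor of MMP14 and other metalloproteases, averaged 7.99 ± 0.03 CPM at the higher dose and 10.9 ± 0.23 CPM in untreated cells (SD, n = 2 each), a log2 fold change of −0.45 (adjusted p = 4.64e-05). TIMP4, named after its values were seen, did not pass the test, at 10.2 CPM at the higher dose and 8.88 CPM in untreated cells (adjusted p = 0.0503).

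**Figure D2:**
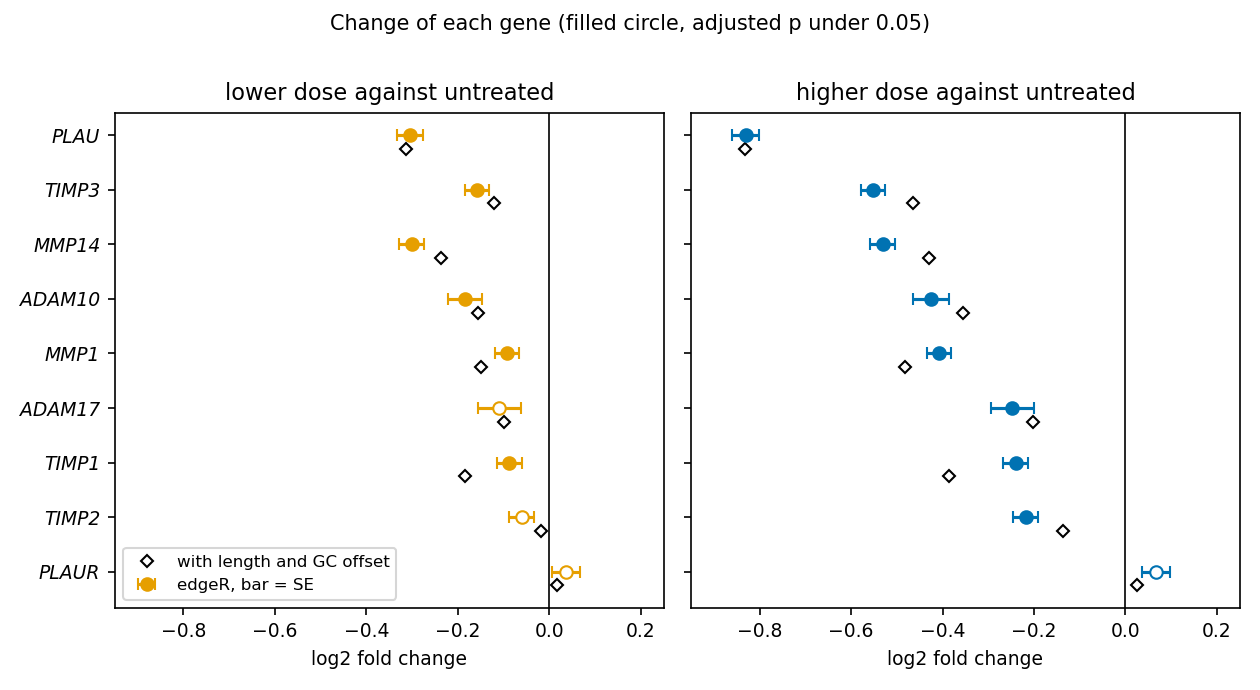
Log2 fold change against untreated cells (horizontal axis) of each of the 9 genes (vertical axis) at the lower dose in the left panel and the higher dose in the right panel; bars are standard errors, filled circles passed an adjusted p of 0.05, and diamonds are the values with the length and GC offset. PLAU, at −0.83, lies farthest to the left at the higher dose, and PLAUR, at 0.07, is the 1 member right of 0.

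The sheddase genes were lower too. ADAM10 had 91.3 and 91.8 CPM in the untreated libraries, 79.5 and 81.7 CPM at the lower dose and 70.7 and 65.7 CPM at the higher dose. The groups did not overlap, and the log2 fold change against untreated cells was −0.43 ± 0.04 at the higher dose (adjusted p = 3.32e-14) and −0.18 ± 0.04 at the lower dose (adjusted p = 7.97e-05). The higher dose against the lower dose gave −0.24 ± 0.04 for ADAM10 (adjusted p = 1.37e-06). ADAM17, the sheddase of tumour necrosis factor, had 47.9 and 48.1 CPM in the untreated libraries, 43.3 and 45.7 CPM at the lower dose and 41.7 and 39.1 CPM at the higher dose. Its groups did not overlap either, and at the higher dose the log2 fold change against untreated cells was −0.25 ± 0.05 (adjusted p = 1.28e-05). It did not pass at the lower dose (−0.11 ± 0.05, adjusted p = 0.0660), although it did with upper quartile scaling (0.0421) and without lower dose replicate b (0.0468). Between the doses ADAM17 differed by −0.14 ± 0.05 (adjusted p = 0.0207), a call that was lost with DESeq2 (0.175), with the length and GC offset (0.0777), without lower dose replicate b (0.242) and without higher dose replicate b (0.281). The gene IAH1, which overlaps ADAM17 in the annotation, had 1633 to 2128 reads per library, and whether strand was used in counting is not known.

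Among 8 other ADAM genes tested, 5 were lower and none was higher at the higher dose than in untreated cells. The shares over all genes tested were 28.2% lower and 28.1% higher. ADAM8, a catalytically active member linked to invasion, averaged 114 ± 1.9 CPM at the higher dose and 197 ± 3.9 CPM in untreated cells (SD, n = 2 each), a log2 fold change of −0.79 (adjusted p = 5.02e-28). ADAM9 differed by −0.17 (adjusted p = 1.92e-06). ADAM19 differed by −0.11 (adjusted p = 0.00866) and by 0.03 with the length and GC offset (adjusted p = 0.455), so its direction depends on that setting. ADAM15 (adjusted p = 0.332) and ADAM22 (0.155) also lost their calls with the offset, which left ADAM8 and ADAM9 of these 8; ADAM15 is named after its values were seen. The call of ADAM19 was lost too with DESeq2 (0.0768), without untreated replicate b (0.142) and without higher dose replicate b (0.107). ADAM22 did not pass with DESeq2 (0.230), with no filter on low counts (0.0515), with the replicate block (0.0515), without untreated replicate a (0.235) or without higher dose replicate a (0.367).

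At the higher dose against untreated cells, 28.2% of all genes were called lower and 28.1% higher. Among the mRNAs of proteins that mature or escort the sheddases, 8 of 14 were lower and 3 higher. These counts were 4 lower and 2 higher without higher dose replicate b, and 5 lower and 2 higher with DESeq2. FURIN, the convertase that removes their inhibitory propeptide, averaged 46.2 ± 3.2 CPM at the higher dose and 57.9 ± 1.7 CPM in untreated cells (SD, n = 2 each; log2 fold change −0.33, adjusted p = 1.26e-08). Its relatives PCSK6 and PCSK7 went opposite ways, at −0.87 (adjusted p = 3.07e-06) and 0.19 (adjusted p = 0.000450). RHBDF1, an inactive rhomboid that carries ADAM17 to the surface, differed by −0.53 (adjusted p = 1.73e-11), and RHBDF2, its close relative, by −0.23 (adjusted p = 0.000568; 0.0559 without higher dose replicate b). TSPAN5, a tetraspanin that escorts ADAM10, averaged 123 ± 2.9 CPM at the higher dose and 94.6 ± 1.9 CPM in untreated cells (log2 fold change 0.38, adjusted p = 3.61e-14). TSPAN14 and TSPAN15, tetraspanin genes of the same list named after their values were seen, were lower. They changed by −0.29 (adjusted p = 4.96e-12) and −0.12 (adjusted p = 0.0441, 0.198 with DESeq2). TSPAN10 was higher, by 0.83 (adjusted p = 0.0149, 0.138 with DESeq2), on 1.16 CPM at the higher dose and 0.653 CPM in untreated cells.

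The substrates that these sheddases release were divided. Of 24 tested, 10 were higher and 11 lower at the higher dose than in untreated cells, with a median log2 fold change of 0.11. Over all genes tested, 28.1% were higher and 28.2% lower. Ligands of the EGF receptor family were among those higher: EREG changed by 0.82 (adjusted p = 1.42e-06), AREG by 0.67 (adjusted p = 3.67e-08) and NRG1 by 0.31 (adjusted p = 4.70e-10). The further ligands HBEGF and TGFA, named after their values were seen, changed by 0.24 (adjusted p = 7.64e-08) and 0.14 (adjusted p = 0.00631). TGFA did not pass with DESeq2 (adjusted p = 0.0671), and its log2 fold change was 0.09 without untreated replicate a. The receptor gene IL6R changed by 1.06 (adjusted p = 0.00438) on 1.11 CPM at the higher dose and 0.535 CPM in untreated cells, and did not pass with DESeq2 (0.0757) or without untreated replicate b (0.0665). The adhesion proteoglycan genes SDC4 and SDC1, also named after their values were seen, changed by 0.31 (adjusted p = 2.34e-12) and 0.24 (adjusted p = 5.72e-09). Among those lower, APP, the amyloid precursor protein gene, averaged 737 CPM at the higher dose and 1204 CPM in untreated cells, a log2 fold change of −0.71 (adjusted p = 1.65e-29). NOTCH2 changed by −0.64 (adjusted p = 7.34e-24), the cell adhesion gene L1CAM by −0.62 (adjusted p = 9.56e-22) and NOTCH1 by −0.49 (adjusted p = 3.15e-10).

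Ratios of protease to inhibitor reads show how unequal these falls were. MMP1 per TIMP1 read was 1.41 in both untreated libraries, 1.41 and 1.40 at the lower dose, and 1.25 and 1.26 at the higher dose. The lower dose and untreated values overlapped, and the higher dose mean was lower than the untreated mean by 11.0% (exact permutation test of the trend, p = 0.0444, adjusted 0.0444). Its log2 difference of −0.17 became −0.10 with the length and GC offset. MMP14 per TIMP2 read was 1.39 and 1.47 in untreated cells, 1.23 and 1.20 at the lower dose, and 1.18 and 1.12 at the higher dose. This ratio fell by 19.5% at the higher dose against untreated cells (exact p = 0.0222, adjusted 0.0333). ADAM17 per TIMP3 read went up, with 0.0409 and 0.0431 in untreated cells, 0.0428 and 0.0441 at the lower dose, and 0.0530 and 0.0508 at the higher dose. The lower dose and untreated values overlapped, and the higher dose mean was 23.4% above the untreated mean (exact p = 0.0444, adjusted 0.0444): both genes fell, TIMP3 further. ADAM10 per TIMP1 read was 0.185 and 0.187 in untreated cells, 0.173 and 0.175 at the lower dose, and 0.166 and 0.160 at the higher dose (exact p = 0.0222, adjusted 0.0333). Its log2 difference of −0.19 between the higher dose and untreated cells turned to 0.03 with the length and GC offset, so that direction is not firm. Ratios of reads on different genes carry the genes' lengths and are compared here only between groups.

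**Figure D3:**
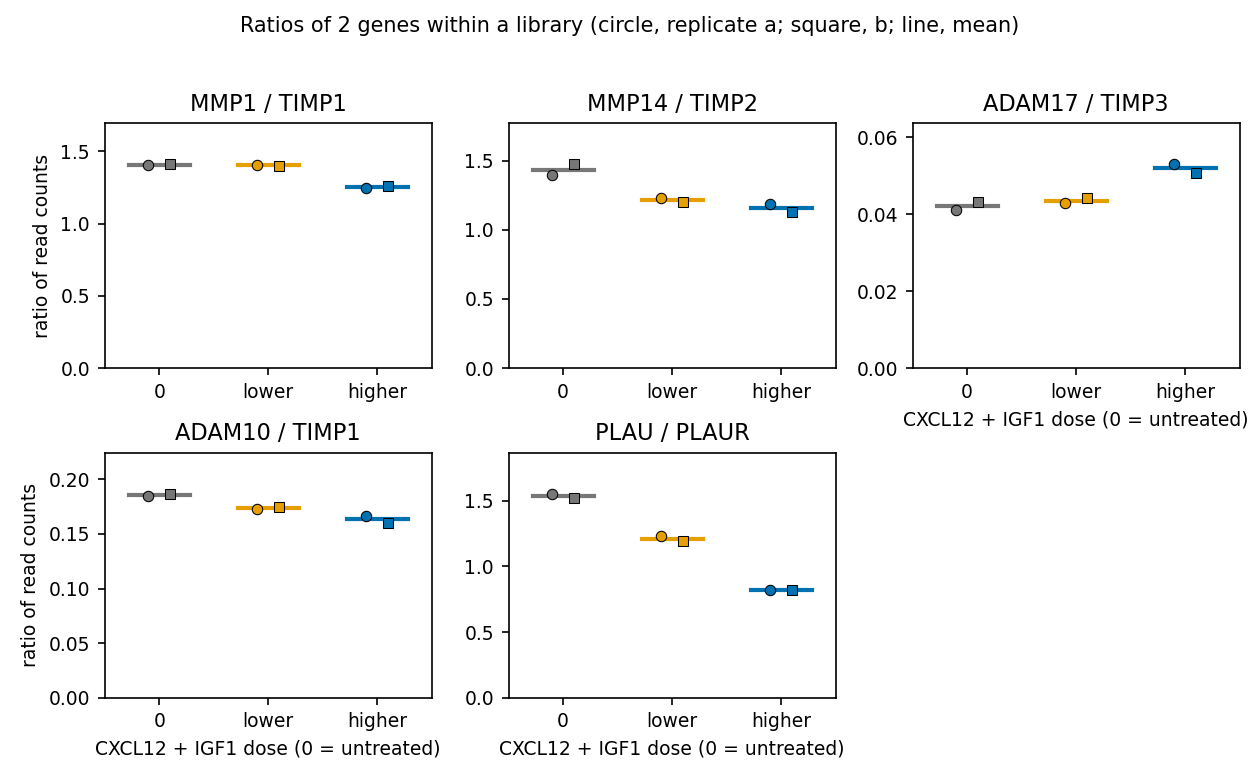
Ratios of read counts (vertical axes) for 5 gene pairs in the untreated, lower dose and higher dose groups (horizontal axes); points are single libraries, 2 in each group, and lines are means. PLAU per PLAUR read falls to 0.823 and 0.824 at the higher dose, against 1.55 and 1.52 in untreated cells, and ADAM17 per TIMP3 read is the 1 ratio that goes up.

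Levels were compared between genes per kilobase of transcript. In untreated cells the order was TIMP1 (553 CPM per kilobase), MMP1 (353), TIMP3 (248), MMP14 (190), TIMP2 (136), PLAU (115), PLAUR (112), ADAM17 (10.9) and ADAM10 (8.01). No neighbours overlapped over the replicates, although PLAU and PLAUR lay close together. At the lower dose PLAUR (115 CPM per kilobase) stood above PLAU (93.0). At the higher dose PLAUR (118) also stood above TIMP2 (117), and PLAU was at 64.6. TIMP1, MMP1, TIMP3, MMP14, ADAM17 and ADAM10 kept their places in all 3 groups. The ADAM10 level rests on a reference transcript of 11431 nt, and a shorter form would give a higher level. Close orders likewise rest on the transcript chosen for each gene. Such were PLAUR above TIMP2 at the higher dose (117.6 and 116.6, transcripts of 1548 and 3652 nt) and PLAU above PLAUR in untreated cells.

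Of 15 cathepsins and cystatins tested, 11 were lower and 2 higher at the higher dose than in untreated cells, beside 28.2% and 28.1% of all genes, with a median log2 fold change of −0.38. CTSD, a lysosomal aspartic protease that tumour cells also secrete, averaged 1012 CPM at the higher dose and 1418 CPM in untreated cells (−0.49, adjusted p = 4.15e-22). CST1, CST4 and CST2 changed by −1.11, −0.85 and −0.63, but these near-identical cystatin genes may share reads and their separate values are uncertain. CSTB, an intracellular inhibitor of cathepsins, went up by 0.23 (adjusted p = 9.43e-10).

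Of 16 surface partners of metalloproteases and components of invadopodia, the matrix-degrading protrusions, 11 were lower and 2 higher, beside 28.2% and 28.1% of all genes. The median of these 16 was −0.23. ITGB1, the integrin beta 1 chain, averaged 921 CPM at the higher dose and 1240 CPM in untreated cells (−0.43, adjusted p = 1.43e-20). The tetraspanin gene CD9 changed by −0.43 (adjusted p = 1.52e-18) and BSG, an inducer of metalloproteases, by −0.24 (adjusted p = 1.56e-11). RAB8A, which traffics MMP14 to the surface, went up by 0.21 (adjusted p = 5.41e-09). Some calls of this list depended on the length and GC offset. With it CTTN (0.13, adjusted p = 7.70e-05) and MYO10 (0.11, adjusted p = 0.00131), both named after their values were seen, were called higher. SH3PXD2B, lower without the offset, and ARPC2, higher without it, lost their calls (adjusted p = 0.124 and 0.0978). The other calls of this list held with the offset.

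Of 10 ADAMTS proteases tested, 4 were lower and 1 higher, beside 28.2% and 28.1% of all genes, with a median of −0.10. These counts were 1 lower and 1 higher without higher dose replicate b or with the length and GC offset, and 2 lower and 1 higher with DESeq2. ADAMTS15 averaged 24.7 CPM at the higher dose and 49.0 CPM in untreated cells (log2 fold change −0.99, adjusted p = 1.54e-22), and ADAMTS6 averaged 8.59 CPM at the higher dose and 5.11 CPM in untreated cells (0.75, adjusted p = 4.81e-08). Calls of the other ADAMTS genes, ADAMTS1, ADAMTS12 and ADAMTS16, were lost with the length and GC offset. Of 7 membrane serine proteases and Kunitz inhibitors, 5 were lower and none was higher, beside 28.2% and 28.1% of all genes. Their median was −0.12. TFPI, an inhibitor of the coagulation protease factor VIIa complex, changed by −0.71 (adjusted p = 1.43e-20), and SPINT1, an inhibitor of matriptase, by −0.94 on 1.62 CPM at the higher dose and 3.12 CPM in untreated cells (adjusted p = 2.00e-05). PRSS23, a secreted serine protease, changed by −0.15 (adjusted p = 1.95e-06).

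**Figure D4:**
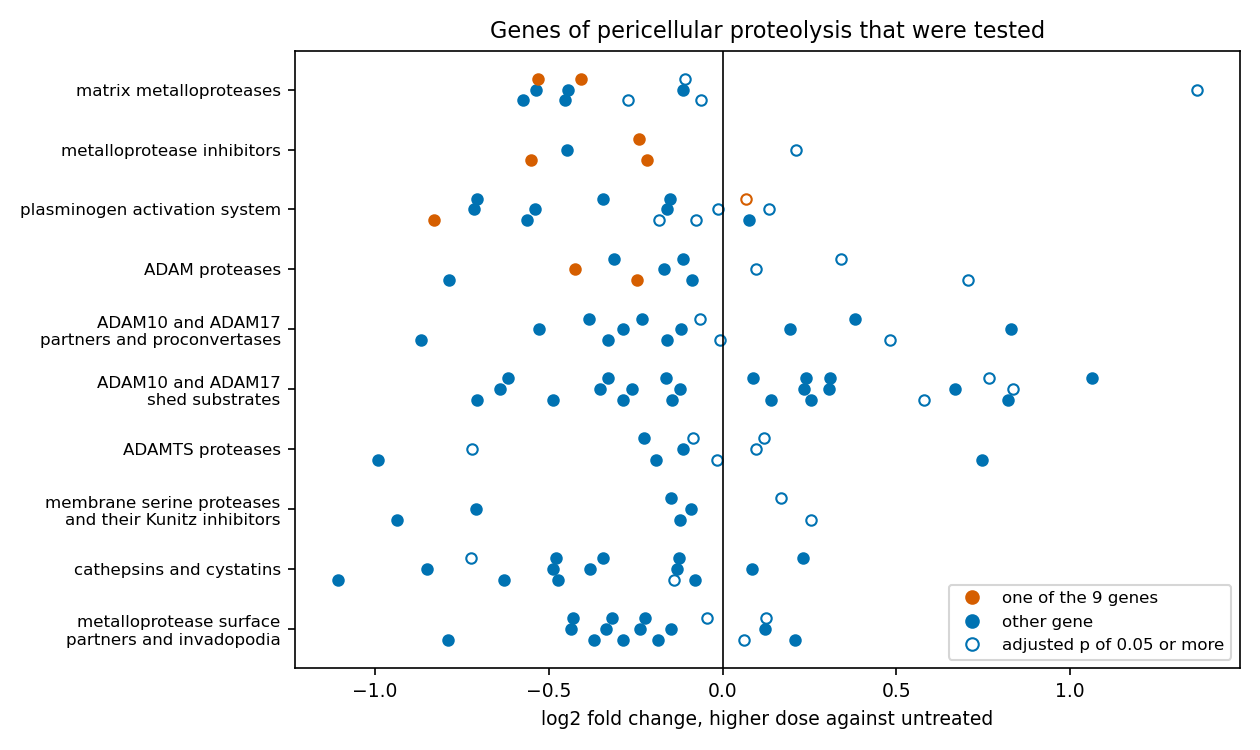
Log2 fold change of each tested gene at the higher dose against untreated cells (horizontal axis) for the 10 gene lists (vertical axis); filled points passed an adjusted p of 0.05, and the 9 members are in orange. Members lie left of 0 except PLAUR, and the shed substrates spread to both sides, with a median of 0.11.

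Genes whose course over the 6 libraries was most like that of the 2 members with the largest changes were found by the root mean square difference of centred log2 CPM among 9262 genes with at least 10 CPM. For PLAU these were LRP5, a Wnt co-receptor (difference 0.02), CTGF, a matricellular protein gene (0.03), and NBR1, an autophagy receptor (0.03). LRP5 changed by −0.85 and CTGF by −0.78 on the log2 scale at the higher dose against untreated cells, beside −0.83 for PLAU. For TIMP3 they were APPL2, an endosomal adaptor (0.01), LGALS8, a galectin (0.02), and MADD, a Rab exchange factor (0.02), which changed by −0.57, −0.57 and −0.56.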

How the data were processed

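The authors deposited raw counts of reads for each gene symbol in 6 libraries; the submitters' processing notes name CASAVA 1.8.1, TopHat 1.4.0, HTSeq and build hg19. For the annotation, counting mode and strand, no setting is given in the sources used here. Groups came from the treatment labels. HTSeq's 5 summary lines, 9.40% to 10.2% of a library's reads, were left out. Library totals limit precision: 3 reads, the limit that a count of 0 allows, were 0.0991 to 0.114 CPM, counting error only.

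The quasi-likelihood F test of edgeR 4.0.16 (R 4.3.3), two-sided and robust, was applied after filterByExpr by group, with TMM factors of 0.997 to 1.003. All 6 libraries entered 1 fit with 3 residual degrees of freedom, and p-values were Benjamini-Hochberg adjusted over 13548 genes at a threshold of 0.05; 8071 genes were filtered out. The biological coefficient of variation was 1.79%, so small changes pass. TMM takes most genes as unchanged, so changes are relative to other genes. The labels call the replicates biological; nothing says whether they came from separate cultures, so p-values may measure technical spread. The replicates of a group differed by more than counting noise (chi-square per degree of freedom 2.02 for untreated, 1.71 for the lower dose and 1.54 for the higher dose).

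Ratios of counts were tested by an exact two-sided permutation of the linear trend of log2 ratio over dose rank, adjusted over 6 ratios; 1 of these ratios and 1 gene of the lists are not reported here. Transcript lengths and GC content came from GENCODE v29, with a length for 97.9% of tested genes; they served for levels per kilobase and for an offset (a smooth of length and GC per library, mgcv 1.9.3). Alternatives were DESeq2 1.42.0, other scaling factors, no filter, the compared groups alone, the replicate letter as a block, the offset, and leaving out each library. Ratios under the offset were added after seeing the data. The edgeR test was checked on simulated counts. From each gene list the text names up to 4 tested genes past the threshold in each direction with the largest change at the higher dose, plus RECK, RHBDF2 and BSG; some with small changes or low counts are left out of the text. The members and lists were chosen with earlier results of these data known.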

Additional observations from a re-analysis of the deposited data

How the results depend on the processing

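The 8 members called at the higher dose against untreated cells were called in all 14 alternatives. At the lower dose 4 to 8 members were called, and between the doses 7 to 8. Of 378 member fold changes under the alternatives, 366 kept direction and side of the threshold, 7 lost and 5 gained a call, and none reversed; of 420 counts over gene lists, 18 moved by over 1.5 times. Over all genes, DESeq2 called 2484 at the lower dose against untreated cells, beside 4418 with edgeR, and 2703 between the doses, beside 4612. Leaving out 1 library gave 6379 to 7635 calls at the higher dose against untreated cells, 3139 to 4252 at the lower dose and 3253 to 4807 between the doses. Deviations of the libraries from their group means showed no pairing by replicate letter (correlations −0.04, 0.00 and −0.03). This cannot tell whether the letters mark shared cultures or days. With the replicate block, 7561, 4320 and 4516 genes were called, beside 7626, 4418 and 4612, and no member's call changed. The replicate block left 0 of 6 ratio trends past the threshold, since its 36 arrangements allow no p below 0.0556. With a lower dose library left out no trend could pass, since the 30 arrangements allow no p below 0.0667. With any 1 library left out, which leaves 30 arrangements, fewer than 6 trends passed. Trends per dose step then lay between −0.10 and −0.07 for MMP1/TIMP1, −0.18 and −0.13 for MMP14/TIMP2, 0.12 and 0.18 for ADAM17/TIMP3, −0.11 and −0.08 for ADAM10/TIMP1, and −0.47 and −0.43 for PLAU/PLAUR. With the length and GC offset MMP1/TIMP1 was −0.05 per step, beside −0.08, and ADAM10/TIMP1 reversed to 0.0154, beside −0.09; the cause was not tested. With 2 libraries in each group, no library could be tested as an outlier.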
